A study of Homo sapiens with 6 samples.

Results

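The integrin and laminin subunit genes were examined in 12Z cells, a human endometriotic epithelial line used as a model of the endometrial epithelium. Members were the rows whose symbol names an integrin alpha or beta subunit or a laminin alpha, beta or gamma chain, which gave 36 of the 16279 genes in the table (17 integrin alpha, 8 integrin beta and 11 laminin genes). Bulk RNA-seq compared untreated cells (Control, labelled NC, n = 3) with cells given 10 ng/mL of recombinant human chemerin ending at Ser157 (rhChem157S, labelled rhChemerin, n = 3) for 48 h. Chemerin is a secreted adipokine, and the comparison asked how it alters the transcriptome of these cells. All libraries came from 1 cell line, with no gene altered in either group, so the p-values below measure the spread between cultures labelled as biological replicates of that line. Each library held between 35430881 and 38341643 counts.

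Integrins are transmembrane receptors in which 1 alpha and 1 beta subunit pair, link the extracellular matrix to actin or to keratin filaments, and decide by their pairing which ligand is bound. Laminins are trimers of an alpha, a beta and a gamma chain that polymerise into the basement membrane under epithelial sheets. In the endometrium, integrins at the epithelial surface have long been studied in embryo attachment, and laminins separate the glandular epithelium from the stroma.

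The cells, which the paper describes as endometrial epithelial, were first compared with cell type markers. The keratins KRT8, KRT18 and KRT19 lay between 277 and 966 FPKM (fragments per kilobase of gene, scaled to the total count) in all 6 libraries. The keratin KRT7 lay only at 1.19 to 2.01 FPKM, the junction cadherin CDH1 reached at most 0.381 FPKM and EPCAM at most 0.807. Among the stromal markers, COL1A1 was high as well, between 728 and 1165 FPKM. COL3A1 lay between 271 and 764 FPKM, LUM between 65.0 and 156 and COL1A2 between 39.3 and 128. All 8 stromal markers and 5 of the 8 epithelial markers had a mean above 1 FPKM. The RNA of CDH1 and EPCAM was near 0 in cells with high KRT8, KRT18 and KRT19 RNA. By immunoblot, the paper detected E-cadherin, the CDH1 protein, and MUC1 in these cells, and took them as signs of epithelial identity. Protein was not measured here, so the RNA levels do not decide that identity. The summed level of the 8 epithelial markers ran from 1597 to 1867 FPKM in Control and from 1761 to 1977 with rhChem157S, and that of the 8 stromal markers from 1703 to 2198 and from 1171 to 2312. Both sums overlapped between the groups, and KRT8, KRT18 and KRT19 made up most of the epithelial sum. Of the other epithelial markers, CDH1, EPCAM, CLDN4 and the mucin MUC1 were lower without overlap in FPKM, and KRT7 overlapped. On that scale 25.1% of all genes tested were lower without overlap and 7.36% higher. After TMM scaling, 2 of the 8 markers were higher and 2 lower without overlap. The edgeR log2 fold change was positive for 4 markers, with KRT8 at 0.29 and KRT19 at 0.27, and negative for 4. DESeq2 called MUC1 alone, at 10.2 to 14.4 FPKM in Control and 6.79 to 9.85 with rhChem157S (adjusted p = 0.0404). The DESeq2 calls of markers stand against 3.75% of all genes higher and 5.30% lower. Among the 8 stromal markers, DESeq2 called 1, PDGFRA, a growth factor receptor of mesenchymal cells. It lay at 1.37 to 1.74 FPKM in Control and 2.09 to 3.10 with rhChem157S (adjusted p = 0.0206). The stromal markers had 5 positive and 3 negative log2 fold changes in edgeR, with PDGFRB at -0.60 and COL1A2 at -0.47. PTPRC, which marks leukocytes, stayed at or under 0.0535 FPKM, the 5 leukocyte markers in the table summed to between 92.9 and 172 FPKM mostly through CD68 and CD14, and the platelet markers GP9 and GP1BA did not exceed 0.0415 FPKM. CD14, the lipopolysaccharide co-receptor, was the leukocyte marker that DESeq2 called, at 36.9 to 51.5 FPKM in Control and 6.64 to 21.2 with rhChem157S. The 6 endothelial markers summed to between 1.61 and 2.06 FPKM in Control and between 0.991 and 1.42 with rhChem157S, without overlap. Most of that sum was KDR, which by itself overlapped between the groups, at 1.05 to 1.32 and 0.802 to 1.14 FPKM. In FPKM, 25.1% of all genes tested were lower without overlap. Of the endothelial markers, DESeq2 called VWF, the von Willebrand factor, at 0.352 to 0.508 FPKM in Control and 0.0394 to 0.189 with rhChem157S (adjusted p = 0.00489). The part of these markers in the results below was not tested.

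The 250 bases before the RefSeq start are shown for 4 genes, namely ITGB1, ITGA6 and ITGA2B, which DESeq2 called, and ITGA2, which had the largest fold change. The ITGA6 and ITGA2 transcripts were higher on average with rhChem157S, as was that of ITGB1, and the ITGA2B transcript was lower. Capitals mark each match on either strand to 1 of 5 patterns, the GC box GGGCGG, the AP-1 site TGANTCA, the CCAAT box CCAAT, the TATA box TATAAA and the E-box CACCTG, and no 2 patterns overlapped in these windows. Of the 2 RefSeq entries of ITGB1 and of ITGA6, the first is printed. Sequences and coordinates are from RefSeq on GRCh38.p14 and are written 5′ to 3′ on the strand of the gene.
ITGB1, minus strand, chr10:32958231-32958480: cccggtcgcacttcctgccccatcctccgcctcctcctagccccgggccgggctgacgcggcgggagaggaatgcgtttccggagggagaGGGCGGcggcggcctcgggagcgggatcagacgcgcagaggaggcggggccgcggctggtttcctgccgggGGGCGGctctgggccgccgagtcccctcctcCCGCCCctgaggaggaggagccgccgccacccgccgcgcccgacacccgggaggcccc
ITGA6, plus strand, chr2:172427086-172427335: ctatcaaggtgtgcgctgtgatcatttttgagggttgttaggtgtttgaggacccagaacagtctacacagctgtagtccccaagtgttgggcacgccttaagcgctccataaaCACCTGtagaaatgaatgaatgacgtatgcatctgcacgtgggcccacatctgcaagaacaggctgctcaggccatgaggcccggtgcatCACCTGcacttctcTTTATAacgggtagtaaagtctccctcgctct
ITGA2, plus strand, chr5:52989102-52989351: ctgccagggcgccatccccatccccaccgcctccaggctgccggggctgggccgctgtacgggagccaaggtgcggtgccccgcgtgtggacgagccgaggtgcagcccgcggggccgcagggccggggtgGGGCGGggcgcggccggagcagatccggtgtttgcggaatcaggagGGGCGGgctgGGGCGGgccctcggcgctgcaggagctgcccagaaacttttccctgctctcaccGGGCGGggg
ITGA2B, minus strand, chr17:44389650-44389899: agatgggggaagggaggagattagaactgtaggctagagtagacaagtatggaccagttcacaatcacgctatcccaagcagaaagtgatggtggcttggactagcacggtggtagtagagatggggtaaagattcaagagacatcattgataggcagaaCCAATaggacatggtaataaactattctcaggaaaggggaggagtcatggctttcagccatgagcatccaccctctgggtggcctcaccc
The printed ITGB1 window held 3 GC boxes and the ITGA2 window 4, in sequence of 78.4% and 76.4% G and C. The printed ITGA6 window held no GC box, 1 TATA box on the reverse strand close to the start and 2 E-boxes, at 50.8% G and C. The second entries differed from the printed ones, with 3 GC boxes, no TATA box and no E-box at 71.6% G and C for ITGA6, and no GC box and 3 TATA boxes at 41.6% G and C for ITGB1. The ITGA2B window held 1 CCAAT box at 48.8% G and C. Over all 35116 RefSeq promoter windows, 42.6% held a GC box, 10.7% a TATA box, 32.0% a CCAAT box, 17.5% the E-box and 6.57% the AP-1 pattern. Of the 32 windows of the 25 members that have an entry, 17 held a GC box, 7 the E-box, 4 a CCAAT box, 2 a TATA box and 2 the AP-1 pattern. A match describes letters in the window and not a bound site.

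ITGB1, ITGA5, ITGA3, LAMC1, LAMB1 and LAMB2 had the highest FPKM of the members, and 15 of the 36 had a mean of 10 FPKM or more. Another 10 members lay under 1 FPKM on average, among them ITGB2, ITGAL, ITGAM and ITGAX of the leukocyte integrins. Of the 38 subunit genes listed for this work, ITGAD and LAMB4 were not analysed here. The edgeR filter on low counts kept 32 members, and ITGA9, ITGAL, ITGB6 and LAMC3 were not tested. Those 4 had between 0 and 14 counts in a library.

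**Figure D1:**
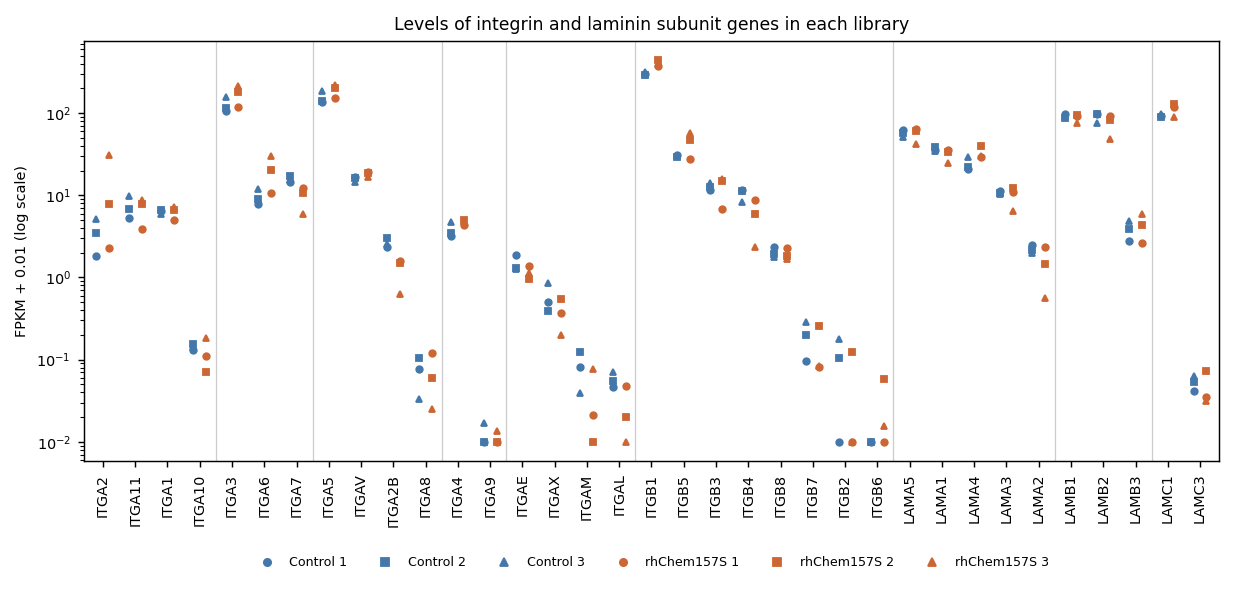
FPKM plus 0.01 on a log axis for 35 members, grouped by role, with 1 point per library (blue Control, orange rhChem157S, shape for the replicate number). Values run over several orders of magnitude, and ITGB1 is the highest at 294 to 446 FPKM.

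No member passed the edgeR quasi-likelihood test after Benjamini-Hochberg adjustment over 13311 genes, and the smallest adjusted p was 0.0868, for ITGB1. The same fit called 4 genes in the whole table, or 0.0301% of those tested. Without adjustment, 8 members were higher at p under 0.05 (ITGA2, ITGA4, ITGA6, ITGAV, ITGB1, ITGB5, LAMA4 and LAMC1), where 11.4% of all genes were, and 2 were lower (ITGA2B and ITGA7), where again 11.4% of all genes were. DESeq2, the tool the study used, called 4 of 34 members higher at an adjusted p under 0.05 (ITGA6, ITGAV, ITGB1 and LAMA4) and 1 lower (ITGA2B), against 3.75% and 5.30% of all genes. The study also required an absolute log2 fold change above 1. That limit was not set here, and ITGAV, ITGB1 and LAMA4 did not reach it. The edgeR log2 fold change of rhChem157S over Control had a median of 0.06 over the 32 tested members, of which 19 were above 0 and 13 below, and of 0.01 over all genes tested. In bulk RNA, a change in the make-up of the culture and a change of RNA per cell cannot be told apart.

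**Figure D2:**
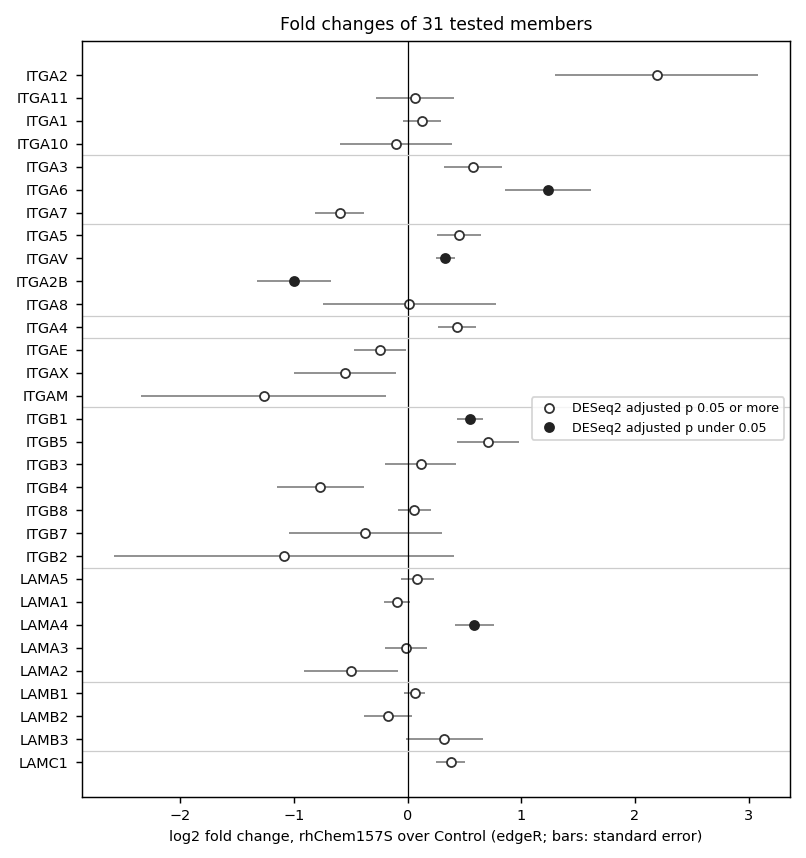
edgeR log2 fold change of rhChem157S over Control for 31 tested members (points, filled where DESeq2 gave an adjusted p under 0.05) with its standard error (bars), n = 3 and 3. ITGA2 stands farthest to the right with a wide bar (SE 0.89), while ITGB1 and ITGAV have short bars that do not reach 0.

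In FPKM, the groups did not overlap for ITGB1, which was higher, nor for ITGA2B and ITGA7, which were lower. Among all genes tested, 7.36% were higher and 25.1% lower without overlap on this scale, so that the split was unequal. After TMM scaling, which sets the bulk of genes level between libraries, 16.5% were higher and 16.0% lower. ITGAV, LAMA4 and LAMC1 then joined the members that were higher without overlap, which gave 4 higher and 2 lower of 32.

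Among the beta subunits, ITGB1 encodes the partner of most alpha chains that bind collagen, laminin and fibronectin. It lay at 302, 294 and 318 FPKM in Control and at 371, 446 and 401 with rhChem157S. Every treated library was thus above every Control library, with a mean of 305 ± 12.3 (SD, n = 3) against 406 ± 37.8 (SD, n = 3) and 1.33-fold between them. The edgeR log2 fold change, with the TMM scaling that FPKM lacks, was 0.55 (SE 0.12), and DESeq2 gave an adjusted p of 5.99e-04. ITGB1 was called by DESeq2 with any 1 of the 6 libraries left out, at adjusted p-values between 6.25e-08 and 0.0496, and its log2 fold change in edgeR then ran from 0.48 to 0.63. The gene lies at chr10:32900319-33005792 on the minus strand (GRCh38, GENCODE 29).

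ITGB5, which pairs with the alpha v chain to bind vitronectin, stood at 30.6, 29.3 and 30.2 FPKM in Control and at 27.5, 47.8 and 57.7 with rhChem157S. Control libraries differed little, and treated replicate 1 fell below all of them while the other treated libraries were far above. The log2 fold change was 0.71 (SE 0.27, edgeR adjusted p = 0.185), 0.97 with an adjusted p of 0.0266 when treated replicate 1 was left out, and 0.41 with an adjusted p of 0.267 when treated replicate 3 was left out. ITGB3, the partner of alpha v and of alpha IIb, had 11.6, 12.5 and 14.2 FPKM in Control and 6.78, 14.9 and 15.8 with rhChem157S. Its groups overlapped, and its log2 fold change of 0.12 (SE 0.31) turned to -0.12 with limma on log2(FPKM + 0.1). ITGB3 shares 2266 of 4394 exon bases with the readthrough transcript AC068234.1 on the same strand, so its counts depend on how reads in shared exons were treated.

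ITGB4 joins alpha 6 in the hemidesmosome and binds keratin filaments through plectin. Its values were 11.6, 11.3 and 8.26 FPKM in Control and 8.79, 5.91 and 2.36 with rhChem157S. Only the lowest Control and the highest treated library overlapped, and the log2 fold change was -0.77 (SE 0.39, edgeR adjusted p = 0.277), which became -0.42 without treated replicate 3 and -1.20 without treated replicate 1. The DESeq2 adjusted p was 0.161, and of the fits that left out a library, DESeq2 called ITGB4 only in that without treated replicate 1. ITGB8, a receptor subunit for latent TGF-beta, lay between 1.68 and 2.33 FPKM in all libraries, with a log2 fold change of 0.06 that was below 0 on the FPKM scale. ITGB2 and ITGB7 of the leukocyte integrins stayed at or under 0.277 FPKM, and 1886 of the 4481 exon bases of ITGB7 overlap ZNF740 on the opposite strand. ITGB6, an epithelial subunit, had between 0 and 8 counts and was at 0 in all 3 Control libraries.

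Among the alpha subunits that bind laminin, ITGA6 pairs with beta 1 or with beta 4. It had 7.90, 8.96 and 12.0 FPKM in Control and 10.6, 20.6 and 29.7 with rhChem157S. Treated replicate 1 fell within the Control range, and the other treated libraries were above it. The log2 fold change after TMM scaling was 1.23 (SE 0.38, edgeR adjusted p = 0.135), and the DESeq2 adjusted p was 0.00909. Mean FPKM, which lacks that scaling, differed 2.11-fold. DESeq2 called ITGA6 in 2 of the 6 fits that left out 1 library, those without Control replicate 3 and without treated replicate 1. Without treated replicate 3, the log2 fold change in edgeR was 0.78. It lies at chr2:172427354-172506282 on the plus strand, and 351 of its 6533 exon bases overlap genes on the opposite strand.

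ITGA3, the usual laminin receptor chain with beta 1 in epithelial cells, was at 108, 117 and 157 FPKM in Control and at 120, 183 and 212 with rhChem157S, with a log2 fold change of 0.58 (SE 0.25, edgeR adjusted p = 0.229) that was 0.34 without treated replicate 3. The highest Control library lay above the lowest treated one. ITGA7, a laminin receptor chain best known from muscle, had 14.7, 17.0 and 15.5 FPKM in Control and 12.1, 10.8 and 5.88 with rhChem157S. The treated libraries were all lower than the Control libraries, with a log2 fold change of -0.60 (SE 0.22) and adjusted p-values of 0.171 in edgeR and 0.0734 in DESeq2. Without treated replicate 3 the log2 fold change was -0.37, and DESeq2 called ITGA7 in that fit and in the one without treated replicate 1. ITGA7 is at chr12:55684568-55716043 on the minus strand. Thus ITGA3 and ITGA6 had positive and ITGA7 a negative fold change within the group of laminin-binding chains.

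Among the alpha chains that bind the RGD motif of matrix proteins, ITGA5 is the fibronectin receptor chain. It was at 136, 142 and 186 FPKM in Control and at 153, 204 and 219 with rhChem157S. These ranges overlapped, and the log2 fold change was 0.45 (SE 0.19, edgeR adjusted p = 0.220), or 0.29 without treated replicate 3. ITGAV, which serves the vitronectin receptors, had 16.7, 16.4 and 14.5 FPKM in Control and 19.5, 18.6 and 16.6 with rhChem157S, so that the lowest treated library fell just under the highest Control library. Its log2 fold change of 0.33 (SE 0.08) had an edgeR adjusted p of 0.108 and a DESeq2 adjusted p of 0.0267. Of the 6 fits that left out a library, DESeq2 called ITGAV in 1, the fit without treated replicate 3.

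ITGA2B, the platelet chain that binds fibrinogen with ITGB3, was at 2.37, 3.05 and 2.52 FPKM in Control and at 1.57, 1.49 and 0.617 with rhChem157S. All treated libraries were lower than all Control libraries, on counts of 77 to 374 per library, in cells whose platelet markers GP9 and GP1BA were at or near 0. The log2 fold change was -1.0 (SE 0.32, edgeR adjusted p = 0.145) with a DESeq2 adjusted p of 0.0327, and DESeq2 called it in the fits without treated replicate 1 and without treated replicate 3. Without treated replicate 3, its log2 fold change in edgeR was -0.71. The gene is at chr17:44372180-44389505 on the minus strand. ITGA8, another chain of this group, had 30 counts at most in a library, and its log2 fold change of 0.02 had no stable sign.

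Among the collagen receptor chains, ITGA2 pairs with beta 1. It had 1.84, 3.43 and 5.07 FPKM in Control and 2.26, 7.74 and 31.3 with rhChem157S. The treated libraries spanned from within the Control range to a value far above all others, so that the mean was 3.45 ± 1.62 (SD, n = 3) against 13.8 ± 15.4 (SD, n = 3). The log2 fold change of 2.19 (SE 0.89) was the largest of the 32 members, with an edgeR adjusted p of 0.206. Without treated replicate 3 it was 0.63, and without treated replicate 1 it was 2.69 with an adjusted p of 0.0477. ITGA2 lies at chr5:52989326-53094779 on the plus strand.

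The collagen receptor chains ITGA1 and ITGA11 lay between 3.93 and 9.68 FPKM in all libraries, with log2 fold changes of 0.13 and 0.06 that were below 0 on the FPKM scale. PELO and AC022133.1 share 1046 exon bases with ITGA1 on its strand. ITGA10 did not exceed 0.173 FPKM. ITGA4, the chain that binds VCAM1 and fibronectin, ranged from 3.17 to 4.79 FPKM in Control and from 4.40 to 4.99 with rhChem157S, and its log2 fold change of 0.44 (SE 0.17) had an edgeR adjusted p of 0.186. The related ITGA9 had at most 2 counts in a library. Of the leukocyte alpha chains, ITGAE was at 0.940 to 1.87 FPKM, ITGAX at 0.188 to 0.842, and ITGAM and ITGAL at 0.115 or less, and the 3 that were tested had negative log2 fold changes of -0.24, -0.55 and -1.27 with standard errors of 0.23, 0.45 and 1.08.

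**Figure D3:**
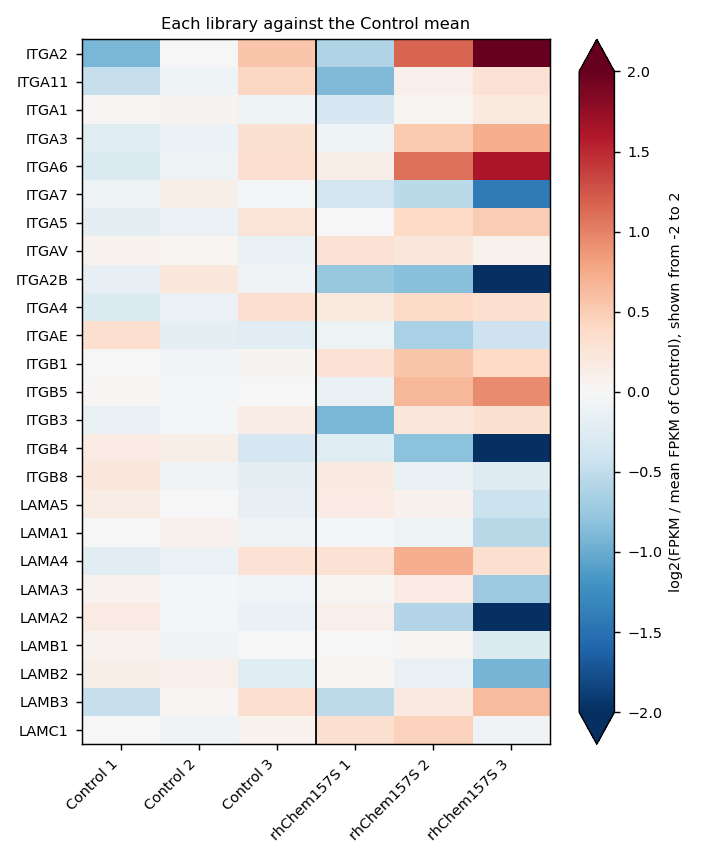
log2 of FPKM over the Control mean for each library (columns) and 25 members with a mean of 1 FPKM or more (rows), from blue at -2 to red at 2, with Control to the left of the line. The strongest reds (ITGA2, ITGA6) and blues (ITGA2B, ITGB4, LAMA2) stand in treated replicate 3.

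The treated libraries differed among themselves in how far the members lay from Control. Over the 26 members with a mean of 1 FPKM or more, the library farthest from the Control mean was treated replicate 3 for 17, treated replicate 2 for 5 and treated replicate 1 for 4. The median distance on the log2 scale was 0.19, 0.43 and 0.53 in treated replicates 1, 2 and 3. It was between 0.08 and 0.17 in the Control libraries, which enter the mean they are compared with. Treated replicate 3 also had the lowest TMM factor, 0.898, where the other libraries lay between 0.9725 and 1.054. The distances were taken on FPKM without TMM scaling, so differences in this factor enter them.

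Among the laminin alpha chains, LAMA4 belongs to laminins of vessel walls and mesenchyme. It had 20.8, 22.2 and 29.4 FPKM in Control and 29.4, 39.9 and 30.3 with rhChem157S. The highest Control library equalled the lowest treated library to 3 digits, and the log2 fold change was 0.59 (SE 0.17). The adjusted p was 0.126 in edgeR and 0.0265 in DESeq2, which called LAMA4 in 3 of the 6 fits that left out a library, those without Control replicate 3, treated replicate 1 or treated replicate 3. LAMA5, the main alpha chain of epithelial basement membranes in adults, was at 63.0, 57.7 and 50.8 FPKM in Control and at 63.8, 61.0 and 42.5 with rhChem157S. Its log2 fold change of 0.08 (SE 0.15) was below 0 on the FPKM scale.

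LAMA1, a chain typical of embryonic basement membranes, had 36.1, 38.5 and 34.7 FPKM in Control and 35.4, 34.0 and 24.7 with rhChem157S, with a log2 fold change of -0.10 (SE 0.12). LAMA3, the chain of the laminin that anchors hemidesmosomes, had 11.3, 10.7 and 10.4 FPKM in Control and 11.0, 12.1 and 6.53 with rhChem157S, with a log2 fold change of -0.01 (SE 0.18). For both chains treated replicate 3 was the lowest library, and without it the log2 fold changes were 0.01 for LAMA1 and 0.18 for LAMA3. LAMA2, the chain of muscle basement membrane, ran from 2.00 to 2.47 FPKM in Control and from 0.550 to 2.37 with rhChem157S, with a log2 fold change of -0.50 (SE 0.41, edgeR adjusted p = 0.487). Without treated replicate 3 it was -0.13, and without treated replicate 1, where DESeq2 called LAMA2, it was -1.0.

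Of the beta chains, LAMB1 was at 97.0, 87.8 and 91.5 FPKM in Control and at 93.0, 94.7 and 76.6 with rhChem157S, and LAMB2 at 98.1, 97.6 and 76.3 and at 92.8, 81.8 and 47.9. Their log2 fold changes were 0.06 (SE 0.09) and -0.18 (SE 0.21), and the groups overlapped for both. The sign for LAMB1 was negative on the FPKM scale, and that for LAMB2 was positive without treated replicate 3. LAMB3, the beta chain of the hemidesmosome laminin, lay between 2.64 and 5.93 FPKM, with a log2 fold change of 0.32 (SE 0.34).

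LAMC1, the gamma chain of most laminins, had 93.3, 89.2 and 98.8 FPKM in Control and 118, 129 and 89.3 with rhChem157S. Treated replicates 1 and 2 were above all Control libraries and replicate 3 was within them. The log2 fold change was 0.38 (SE 0.12), with adjusted p-values of 0.149 in edgeR and 0.0610 in DESeq2, and the edgeR adjusted p without treated replicate 3 was 0.0436. LAMC3 stayed at or under 0.0619 FPKM.

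The make-up of the chain classes was then expressed as shares of its summed FPKM. In Control, ITGA5 held 44.3% ± 0.712 (SD, n = 3) and ITGA3 36.3% ± 1.34 of the alpha sum, and ITGB1 held 84.6% ± 0.611 of the beta sum. With rhChem157S, ITGB1 held 86.4% ± 2.65, and its shares overlapped between the groups. ITGA6 went from 2.74% ± 0.145 to 4.37% ± 1.19 of the alpha sum and ITGA7 from 4.58% ± 0.763 to 2.35% ± 1.27, in both cases without overlap. The shares of ITGA11, ITGA2B, ITGAL and ITGAX in the alpha sum were also lower without overlap. So was that of ITGB4 in the beta sum, at 2.90% ± 0.588 in Control and 1.25% ± 0.814 with rhChem157S. A share also falls where other members of the sum rise, and no rate over all genes was computed for shares. In FPKM itself, ITGA11, ITGAL, ITGAX and ITGB4 overlapped between the groups. The edgeR log2 fold change of ITGA11 was 0.06, and ITGAL, with 12 counts at most in a library, was not tested. The alpha sum was 349 ± 58.3 FPKM in Control and 446 ± 103 with rhChem157S, and the beta sum was 360 ± 12.0 and 471 ± 50.7. Only the beta sum did not overlap between the groups, and ITGB1 made up most of it.

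Among the laminin alpha chains, LAMA5 held 43.6% ± 3.63 in Control and 42.2% ± 2.38 with rhChem157S. LAMA1 made up 27.0%, 29.4% and 27.2% in Control and 24.9%, 22.9% and 23.6% with rhChem157S, so that every treated share was lower, while its FPKM overlapped. LAMA4 had 18.5% ± 4.01 and 25.5% ± 4.29, with overlap. LAMB1 and LAMB2 divided the beta sum almost evenly in Control, at 49.5% ± 3.33 and 48.5% ± 3.81. LAMA3 and LAMB3 were minor in their classes, at 8.27% and 2.08% in Control.

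**Figure D4:**
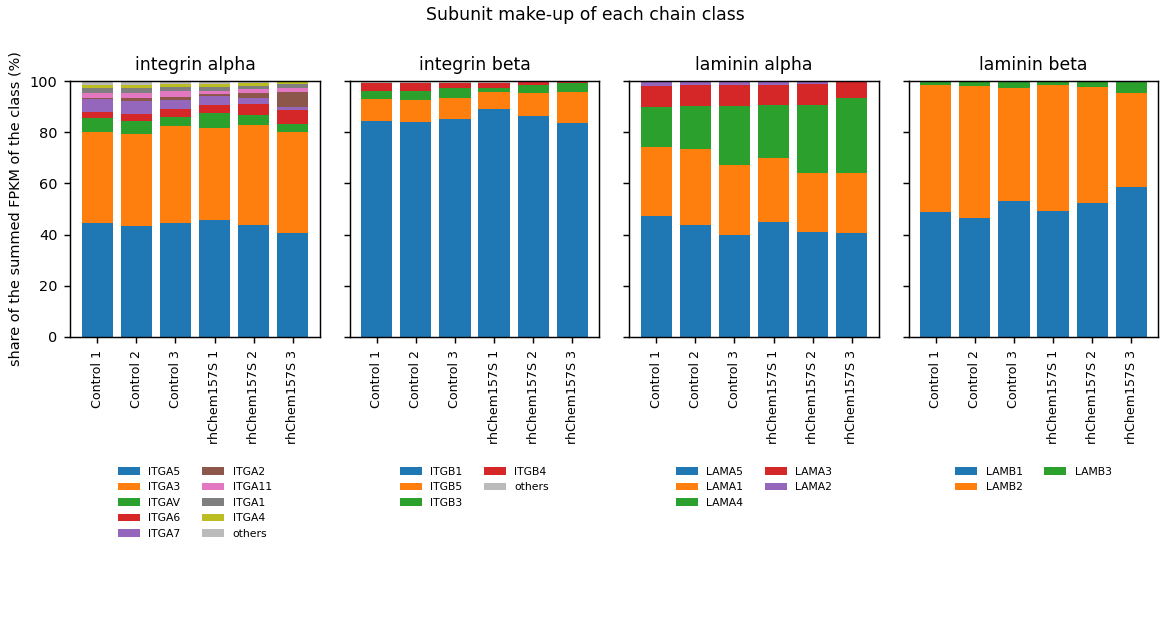
Share of the summed FPKM (percent, bars from 0 to 100) that each subunit takes within 4 chain classes, 1 stacked bar per library. ITGA5 and ITGA3, ITGB1, LAMA5, and LAMB1 and LAMB2 are the largest blocks in all 6 libraries.

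Ratios between subunits that can take the same place in a receptor or trimer were compared within each library, where scaling between libraries has no part. The exact permutation test of 3 against 3 libraries cannot give a two-sided p under 0.10. The log2 ratio of ITGA6 to ITGA3 was -3.77, -3.71 and -3.71 in Control and -3.51, -3.15 and -2.83 with rhChem157S. The groups did not overlap and the means differed by 0.57, at that smallest p of 0.10 (exact permutation test, two-sided, n = 3 and 3). The log2 ratio of ITGB4 to ITGB1 was -4.70, -4.70 and -5.27 in Control and -5.40, -6.24 and -7.41 with rhChem157S, a difference of -1.46 without overlap, also at p = 0.10 (exact permutation test). That difference was -0.93 without treated replicate 3 and -1.93 without treated replicate 1. Neither ratio passed a threshold of 0.05, which this design cannot reach.

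The ratios of 3 further pairs overlapped between the groups. The ratio of ITGA2 to ITGA5 differed by 1.06 (exact permutation p = 0.40), or by 0.19 without treated replicate 3 and by 1.83 without treated replicate 1. The difference was -0.13 for LAMA3 to LAMA5 (exact permutation p = 0.40) and 0.20 for LAMB3 to LAMB1 (exact permutation p = 0.80), all on the log2 scale. Adjusted over the 6 ratios computed, the smallest p was 0.30. ITGB6 to ITGB5 was not computed because ITGB6 had too few counts.

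**Figure D5:**
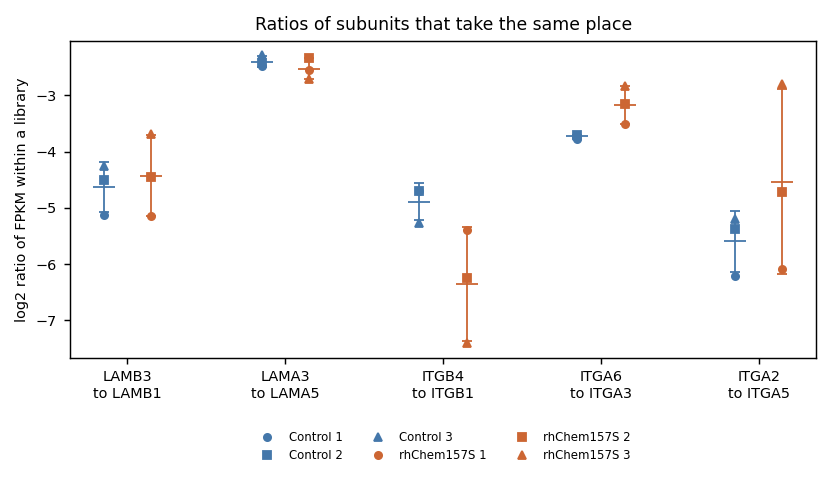
log2 ratio of FPKM within each library for 5 pairs of subunits, with points per library, a bar at the mean and the SD of each group (blue Control, orange rhChem157S, n = 3). ITGB4 to ITGB1 lies lower and ITGA6 to ITGA3 higher in all treated libraries than in all Control libraries.

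The genes that work with these subunits were taken from fixed lists. The counts below stand against 11.4% of all genes higher and 11.4% lower at an unadjusted p under 0.05 in edgeR, and against 3.75% higher and 5.30% lower by DESeq2. Of 29 genes of the adhesion complex core, which links integrin tails to actin, 20 had positive and 9 negative log2 fold changes, with a median of 0.17 against 0.01 over all genes. edgeR called none of them and had 5 higher and 3 lower at an unadjusted p under 0.05, and DESeq2 called 2 higher and none lower. TLN1, the talin that activates integrins, had 69.5, 64.3 and 59.5 FPKM in Control and 77.7, 75.4 and 73.8 with rhChem157S (log2 fold change 0.36, DESeq2 adjusted p = 0.0149). FERMT1, the kindlin of epithelial cells, had 0.183, 0.399 and 0.437 FPKM in Control and 0.720, 0.666 and 1.01 with rhChem157S (log2 fold change 1.38, DESeq2 adjusted p = 0.0151). Both were higher in every treated library than in every Control library, FERMT1 at a low level. Of the 29 genes, 4 were higher and 6 lower without overlap in FPKM (7.36% and 25.1% of all genes). After TMM scaling, 5 were higher and 3 lower without overlap (16.5% and 16.0% of all genes).

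Of 8 genes of hemidesmosomes and other laminin receptors, 6 had positive log2 fold changes, with a median of 0.13. edgeR called none of them, 3 being higher and none lower at an unadjusted p under 0.05 (11.4% of all genes each way), and DESeq2 called 2 higher (3.75% of all genes). CD151, the tetraspanin bound to laminin-binding integrins, had 208, 201 and 199 FPKM in Control and 235, 234 and 222 with rhChem157S (log2 fold change 0.31, DESeq2 adjusted p = 0.00779). COL17A1, the hemidesmosome collagen, had 0.00503, 0.0679 and 0.0692 FPKM in Control and 0.0883, 0.241 and 0.619 with rhChem157S (log2 fold change 2.89, DESeq2 adjusted p = 0.0228). Neither overlapped between the groups, and COL17A1 had 130 counts at most in a library.

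Of 12 basement membrane partners of laminin, 11 were tested, with 5 positive and 6 negative log2 fold changes and a median of -0.04. edgeR called none of them and had none higher and 1 lower at an unadjusted p under 0.05 (11.4% of all genes each way), and DESeq2 called 1 lower (5.30% of all genes). Without overlap in FPKM, 0 were higher and 4 lower (7.36% and 25.1% of all genes). After TMM scaling, 0 were higher and 3 lower without overlap (16.5% and 16.0% of all genes). The list was not tested as a whole, so these counts do not set it apart from all genes. The gene that DESeq2 called, COL18A1, the source of endostatin, had 53.4, 50.4 and 40.7 FPKM in Control and 36.8, 31.2 and 22.6 with rhChem157S (log2 fold change -0.55, DESeq2 adjusted p = 0.0302). Of 21 other integrin ligands and counter-receptors, 19 were tested, with 9 positive and 10 negative log2 fold changes and a median of -0.16. edgeR called none of these either, with 2 higher and 3 lower at an unadjusted p under 0.05 (11.4% of all genes each way), and DESeq2 called 1 lower (5.30% of all genes), with lower shares near those of all genes. Without overlap, 1 was higher and 5 lower in FPKM, and 1 was higher and 3 lower after TMM scaling. The gene that DESeq2 called, VTN, encodes vitronectin, the ligand of the alpha v receptors. It was at 63.5, 68.0 and 63.9 FPKM in Control and at 37.9, 28.7 and 16.5 with rhChem157S (log2 fold change -1.12, edgeR adjusted p = 0.0826, DESeq2 adjusted p = 2.55e-04). VTN thus lay far below Control in every treated library, where ITGAV, a chain of its receptors, had a positive fold change.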

How the data were processed

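RNA of 12Z cells (3 Control and 3 rhChem157S libraries) was sequenced after TRIzol extraction. The authors trimmed reads with fastp, used HISAT2 for alignment to GRCh38.p13, and took the reads of each gene from HTSeq. One deposited table holds these raw counts and the other the FPKM that the authors computed. In 79491 values checked, the FPKM equalled count per gene length and total count to within a relative difference of 4.59e-08. The strand setting and the annotation release are not given in the sources used here, so reads of overlapping genes may be shared.

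Counts were tested with edgeR 4.0.16 in R 4.3.3 (quasi-likelihood, legacy=TRUE, TMM factors, filterByExpr with the group, Benjamini-Hochberg over 13311 genes, adjusted p under 0.05). SE is the absolute log2 fold change over the square root of F. Ratios used exact permutation tests. Members are given per library where the groups did not overlap or the mean FPKM was at least 10, and otherwise by level and fold change. ITGA2 and ITGB4, under 10 FPKM, are also given per library, and they and the 4 promoters were chosen after their values were seen. List genes are named where edgeR or DESeq2 gave an adjusted p under 0.05 and the groups did not overlap. The members and lists were chosen with earlier results of these data known. The fits were repeated in DESeq2 1.42.0, in limma 3.58.1 with log2 FPKM after a pseudocount of 1 or 0.1, and with other scalings and filters, the replicate number as a block, and each library left out. DESeq2 with a block or with a library left out was added after seeing the data. Positions of genes and exon overlaps are from GENCODE 29 and promoters from RefSeq (GRCh38.p14). Scripts were tested on simulated data. The smallest library puts 1 count at 0.0282 CPM. The results of 1 member are included in the counts and are not reported here.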

Additional observations from a re-analysis of the deposited data

How the results depend on the processing

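edgeR called 4 genes of the table at an adjusted p under 0.05 and none of the members. The number of genes called was 1302 with DESeq2, 15 with legacy=FALSE, 179 with limma on log2(FPKM + 1), 23 with limma on log2(FPKM + 0.1), 0 with upper quartile factors (2908 genes at an unadjusted p under 0.05), 17 with no filter and 1 with the replicate number as a block. With 1 library left out it ran from 0 to 844 in edgeR and from 283 to 2616 in DESeq2. Leaving out treated replicate 1 gave the 844 and treated replicate 3 gave 415, and each of the other 4 gave 0. The cause was not tested. Among the members, edgeR then called between 0 and 4 higher, namely ITGA2, ITGA6, ITGB1 and ITGB5 without treated replicate 1 and LAMC1 without treated replicate 3, and 0 lower in every such fit. DESeq2 called 4 higher and 1 lower with all libraries, and between 1 and 9 higher and between 0 and 4 lower with 1 left out (9 and 4 without treated replicate 1). With the replicate block it called 7 higher and 3 lower, the lower ones being ITGA2B, ITGA7 and ITGB4. ITGAV was no longer called there (DESeq2 adjusted p = 0.0649). ITGB1 is the member that DESeq2 called in all 6 fits that left out 1 library.

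The replicate block left the members called by edgeR at 0, with 14 of 32 at an unadjusted p under 0.05, where 3367 of 13311 genes were. Same-numbered libraries had correlations of their deviations from the group means of 0.241, 0.0015 and 0.246. With 3 libraries per group, these values cannot decide whether the numbers mark pairs. The labels do not state pairs, and the main fit did not use the numbers. Libraries 1 and 3 of each group correlated best with the other group's library of the same number and library 2 did not. Over all genes, the median of the log2 fold changes moved farthest to -0.12, with library size only and with limma on log2(FPKM + 0.1), against 0.01 in edgeR with TMM.

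Of the 32 tested members, 19 kept the sign of the log2 fold change in every alternative, and 13 did not, in 41 of 539 values. With limma on log2(FPKM + 1), limma on log2(FPKM + 0.1) and library size only, in that order, the log2 fold change was -0.023, -0.029 and -0.013 for ITGA1, -0.10, -0.12 and -0.085 for ITGA11, -0.0054, -0.051 and -0.086 for ITGA8, -0.11, -0.12 and -0.032 for ITGB3, -0.044, -0.064 and -0.065 for ITGB8, -0.052, -0.053 and -0.036 for LAMA5 and -0.069, -0.069 and -0.064 for LAMB1. ITGA8 was also at -0.0093 with upper quartile factors, -0.10 with the replicate block and -0.14 with the block in DESeq2. With 1 library left out, it ran from -0.049 to 0.28 for ITGA1, -0.63 to 0.19 for ITGA10, -0.22 to 0.35 for ITGA11, -0.78 to 0.45 for ITGA8, -0.15 to 0.42 for ITGB3, -1.19 to 0.047 for ITGB7, -0.049 to 0.19 for ITGB8, -0.17 to 0.010 for LAMA1, -0.19 to 0.18 for LAMA3, -0.34 to 0.027 for LAMB2 and -0.046 to 0.59 for LAMB3. The log2 ratio of LAMB3 to LAMB1 then differed by -0.17 to 0.56, below 0 without Control replicate 1 and without treated replicate 3. Members under 1 FPKM had few counts, which limits what could be seen in them.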
